A study of Mus musculus with 4 samples.

Results

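The mRNAs of the cytosolic ribosomal proteins were followed through the RNA immunoprecipitation of TSSK2 from the mouse testis. The set held the rows of the deposited count table that GENCODE vM21 lists as protein coding and whose symbol is Rpl or Rps followed by a digit, with Rplp0, Rplp1, Rplp2 and Rpsa added and the Rps6k kinases and pseudogenes left out. These were 86 of the 21936 genes in the table. By their symbols they were 31 proteins of the small (40S) subunit, 43 of the large (60S) subunit, the 3 proteins of the stalk, 8 gene copies and Rps19bp1, which meets the symbol rule but encodes a binding partner of RPS19 rather than a ribosomal protein.

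All libraries came from adult C57BL/6 mice, without a transgene or a drug treatment. Germ cells were released from the testis, cross-linked with paraformaldehyde, lysed and broken up by sonication. The insoluble pellet was then incubated with an antibody against TSSK2 (TSSK2-IP, n = 2) or, as the negative control, with IgG from mouse (control IgG-IP, n = 2). TSSK2 is a testis-specific serine kinase found in the late chromatoid body (late-CB), an RNA-rich granule of elongating spermatids, and the comparison addresses which mRNAs associate with it. Whether the replicates came from separate mice was not given in the sources used here, so the p-values measure the spread between these libraries, which may be technical. The DDX4-IP libraries and an input library were not analyzed here, and an enrichment is therefore always relative to IgG.

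Ribosomal proteins assemble with the ribosomal RNAs into the subunits that translate every mRNA. Their own mRNAs are short and abundant, and in most tissues they are translated together through a 5′ terminal oligopyrimidine (TOP) tract, a run of C and T that opens with a C at the transcription start and is read under growth control by LARP1 and mTOR. In the testis, the X chromosome is silenced from meiosis onward, and some ribosomal proteins encoded on it have autosomal copies, derived by retroposition, that are used in germ cells. RPL10L, the copy of RPL10, is needed for male meiosis, and RPL39L, the copy of RPL39, belongs to a ribosome of spermatids.

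Start sites of 8 members are shown to give the TOP tract as it appears at both ends of the range of fold changes described below. Each sequence runs from 15 bases before to 15 bases after the first base of the RefSeq mRNA (GRCm38). Capitals mark a run of at least 8 consecutive C or T letters on the strand of the gene, counted from a C within 5 bases of the annotated start. The letters just before the capitals can also be C or T, as for Rpl28, Rpl32 and Rpl14, so the run may open further upstream. Rpl28 (chr7:4792950-4792979, plus strand) and Rpl32 (chr6:115808729-115808758, minus strand) were among the members lowest in TSSK2-IP, and Rps27 (chr3:90213634-90213663, minus strand) and Rpl14 (chr9:120571502-120571531, plus strand) among the highest.
Rpl28: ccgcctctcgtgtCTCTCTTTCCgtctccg
Rpl32: cgccgccgcctCTTCCTTCTTCCTCggcgc
Rps27: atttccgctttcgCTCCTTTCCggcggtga
Rpl14: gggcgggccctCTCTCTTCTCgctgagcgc

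Rplp0 (chr5:115559452-115559481, plus strand), the member with the lowest fold change, and Rpl34 (chr3:130730384-130730413, minus strand), the member with the highest, had no such run. It was also missing at the starts of the X-linked Rpl39 (chrX:37085208-37085237, minus strand) and of its autosomal copy Rpl39l (chr16:10170213-10170242, plus strand).
Rplp0: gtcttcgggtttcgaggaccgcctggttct
Rpl34: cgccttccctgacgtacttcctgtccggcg
Rpl39: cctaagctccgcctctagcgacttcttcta
Rpl39l: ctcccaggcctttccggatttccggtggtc

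A run of this kind was found at the start of 21 of the 86 members (24.4%) and of 946 of the 21000 genes with a curated RefSeq mRNA (4.5%). An annotated start can lie some bases from the start used in the testis. A window without the run says only that none could be counted from a C within 5 bases of the annotated start. A run that lies further upstream, as in the window of Rpl34, was not counted. Shorter runs were not counted either, such as 7 bases for Rpl31 and 6 for Rpl12 and Rplp1. Members without the run of 8 can therefore still carry a TOP tract. Of the members with the run, 19 were tested in the comparison below, and their median log2 fold change was 0.08, with 11 above and 8 below 0. The 59 tested members without it had a median of -0.05, with 27 above and 32 below 0. The order of these medians turned when a control was left out. It was 0.12 with the run and 0.17 without it when control IgG-IP replicate 1 was left out, and -0.35 and -0.25 when replicate 2 was.

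The 4 libraries held between 3938922 and 9858941 counts on genes. Control IgG-IP replicate 1 was the deepest and stood apart from the other libraries. Its normalization factor was 0.652, against 1.117 to 1.177 in the other 3, and its counts differed from those of its replicate far more (chi-square of 72.6 per degree of freedom over genes) than the counts of the TSSK2-IP replicates differed from each other (3.15). Results are therefore given with and without it. A count of 3 corresponded to between 0.468 and 0.689 normalized CPM, the count scaled to a common library size and corrected for composition.

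Most ribosomal protein mRNAs were well represented. Levels between genes were compared as normalized CPM per kilobase of RefSeq mRNA, as means of the 4 libraries. Each gene was given the length of 1 RefSeq mRNA, although its annotated exons can together be longer, as for Rpl12 (3598 against 638 bases). Levels per kilobase and the copy ratios below depend on that choice of length. The median member lay at percentile 84.6 of all tested genes on this scale, 25 members lay at or above percentile 90, and 13 lay below percentile 50. The 6 members with the highest levels were Rplp0 (200.8 CPM per kb), Rpl41 (174.9), Rpl13 (107.9), Rpl32 (99.9), Rpl8 (91.2) and Rpl26 (87.8). All are structural proteins of the large subunit, P0 being the base of the stalk that recruits translation factors.

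Together, the members took 0.303% and 0.289% of all counts in TSSK2-IP, and 0.273% and 0.265% in control IgG-IP. The exact (Clopper-Pearson) 95% intervals were 0.298 to 0.309% and 0.284 to 0.294% for TSSK2-IP, and 0.269 to 0.276% and 0.260 to 0.270% for control IgG-IP, and cover counting error only. Both TSSK2-IP libraries were thus above both controls, by 0.0273 percentage points on average (0.296% ± 0.0098 against 0.269% ± 0.0053, SD, n = 2 each). The exact two-sided permutation p was 0.333, which is the smallest that 2 against 2 libraries allow, so the difference could not pass a test. The direction turned over the 22 members with under 10% of their 150-base windows elsewhere in the genome. They averaged 0.0831% for the TSSK2-IP libraries against 0.1004% for the controls (exact permutation p = 0.333). Among them was Rplp0, with 602 and 545 counts in TSSK2-IP and 4257 and 868 in control IgG-IP replicates 1 and 2. The part of Rplp0 in this turn was not tested. A share of deposited counts is not adjusted for composition, unlike the fit below.

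Of the 86 members, 78 had enough counts to be tested among 14722 genes. None was called higher or lower in TSSK2-IP when a log2 fold change of 1 or more, in either direction, and an adjusted p of 0.05 or less were required (edgeR, quasi-likelihood F-test, Benjamini-Hochberg). Over all tested genes, 0.693% were called higher and 0% lower. Without adjustment, 7 members had p under 0.05 and a higher level in TSSK2-IP and 5 a lower level, beside backgrounds of 8.34% and 4.89% of all genes, and DESeq2 called 0 members and gave 3 and 4 at p under 0.05. The fold changes were centered near 0, with 38 members above and 40 below. Their median log2 fold change was -0.04, beside -0.02 over all tested genes.

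**Figure D1:**
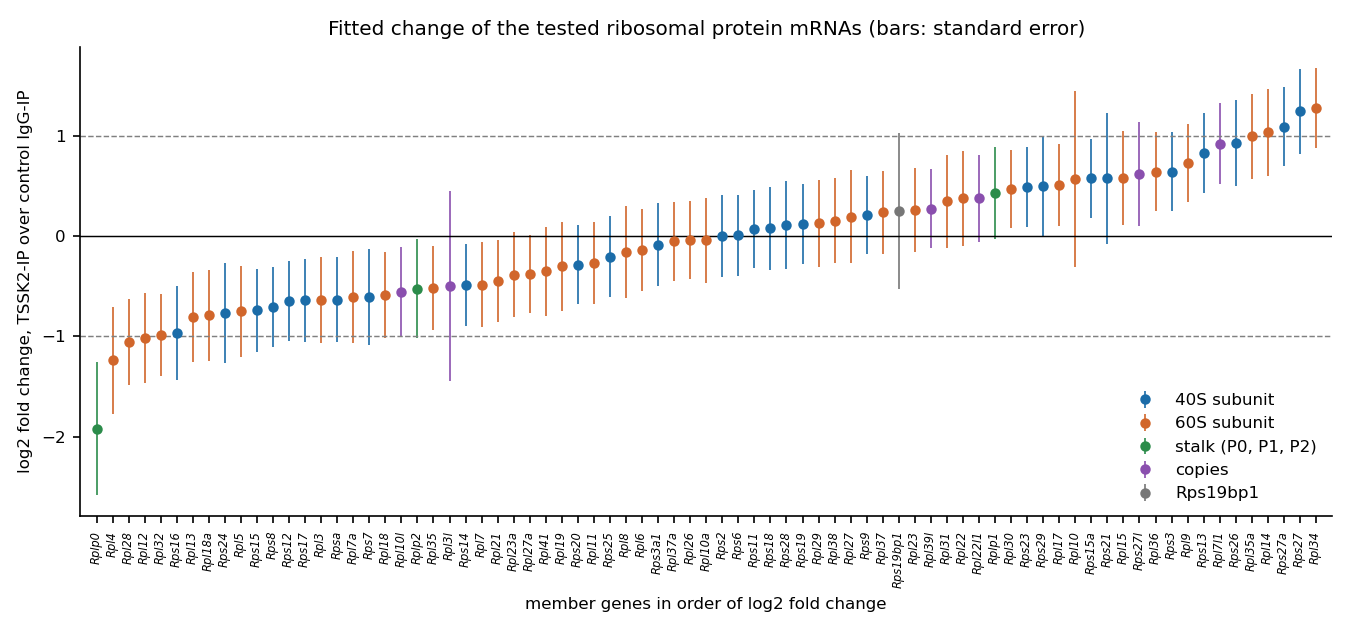
Log2 fold change of TSSK2-IP over control IgG-IP (y axis) for the tested members in order of that value (x axis), with the standard error of the edgeR fit as bars, colors for the part of the ribosome and dashed lines at 1 and -1. The members ran from -1.92 for Rplp0 to 1.28 for Rpl34, with both subunits on both sides of 0.

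Both TSSK2-IP libraries were above both controls for 22 members (28.2% of those tested, background 27.3%) and below both for 17 (21.8%, background 21.6%), so that both shares were near the background. A fitted log2 fold change of 1 or more was seen for 4 members (background 11.1%) and of -1 or below for 5 (background 9.88%).

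Rpl34 encodes a large-subunit protein and had the largest fold change of the members. It measured 33.4 and 35.8 normalized CPM in TSSK2-IP and 13.4 and 15.2 in control IgG-IP. Both TSSK2-IP libraries were more than 2-fold above both controls, and the replicates of each group lay close together. The log2 fold change was 1.28 (SE 0.40) and the adjusted p of the edgeR test was 0.222, the smallest among the members.

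Rps27, a zinc-finger protein of the small subunit, measured 24.7 and 20.2 CPM in TSSK2-IP and 9.67 and 9.19 in control IgG-IP. The groups did not overlap, and the log2 fold change was 1.25 (SE 0.42, edgeR adjusted p = 0.262). Every 150-base window of its mRNA occurred elsewhere in the genome, so reads of Rps27 and of its processed copies could not be told apart at that length.

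Rps27a encodes ubiquitin fused to a small-subunit protein. It measured 49.96 and 55.9 CPM in TSSK2-IP and 25.7 and 23.9 in control IgG-IP, again without overlap (log2 fold change 1.09, SE 0.39, edgeR adjusted p = 0.277). Of its windows, 68.3% occurred elsewhere, and 12.5% of its mRNA lay opposite an exon of Clhc1.

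The next highest members were Rpl14 and Rpl35a of the large and Rps26 of the small subunit. Rpl14 measured 23.0 and 20.2 CPM in TSSK2-IP and 8.27 and 12.9 in control IgG-IP (log2 fold change 1.04, SE 0.43). Rpl35a measured 28.6 and 22.8 CPM in TSSK2-IP and 10.3 and 15.6 in control IgG-IP (0.99, SE 0.42). Rps26 measured 28.4 and 28.0 CPM in TSSK2-IP and 10.5 and 19.3 in control IgG-IP (0.93, SE 0.43). None of the 3 overlapped between groups, and in each of them control IgG-IP replicate 1 was the lowest library.

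Rplp0, the protein P0 of the stalk, had the lowest fold change. It measured 124.8 and 103.7 CPM in TSSK2-IP and 664 and 199.4 in control IgG-IP replicates 1 and 2. Both controls were above both TSSK2-IP libraries, but the controls themselves differed more than 3-fold. The log2 fold change was -1.92 (SE 0.66, edgeR adjusted p = 0.268).

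Rpl4, a large-subunit protein at the exit tunnel, measured 76.5 and 68.5 CPM in TSSK2-IP and 249.9 and 91.4 in control IgG-IP (log2 fold change -1.24, SE 0.53). It did not overlap between groups, and control IgG-IP replicate 1 was again far above the other libraries.

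Another 3 low members all belong to the large subunit. Rpl28 measured 22.6 and 20.4 CPM in TSSK2-IP and 58.2 and 31.02 in control IgG-IP (log2 fold change -1.06, SE 0.43). Rpl12, a protein at the stalk base, measured 29.0 and 22.8 CPM in TSSK2-IP and 72.1 and 32.4 in control IgG-IP (-1.01, SE 0.45). Rpl32 measured 31.7 and 36.0 CPM in TSSK2-IP and 79.6 and 54.2 in control IgG-IP (-0.98, SE 0.41). None of these 3 overlapped, and control IgG-IP replicate 1 was the highest library in each.

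**Figure D2:**
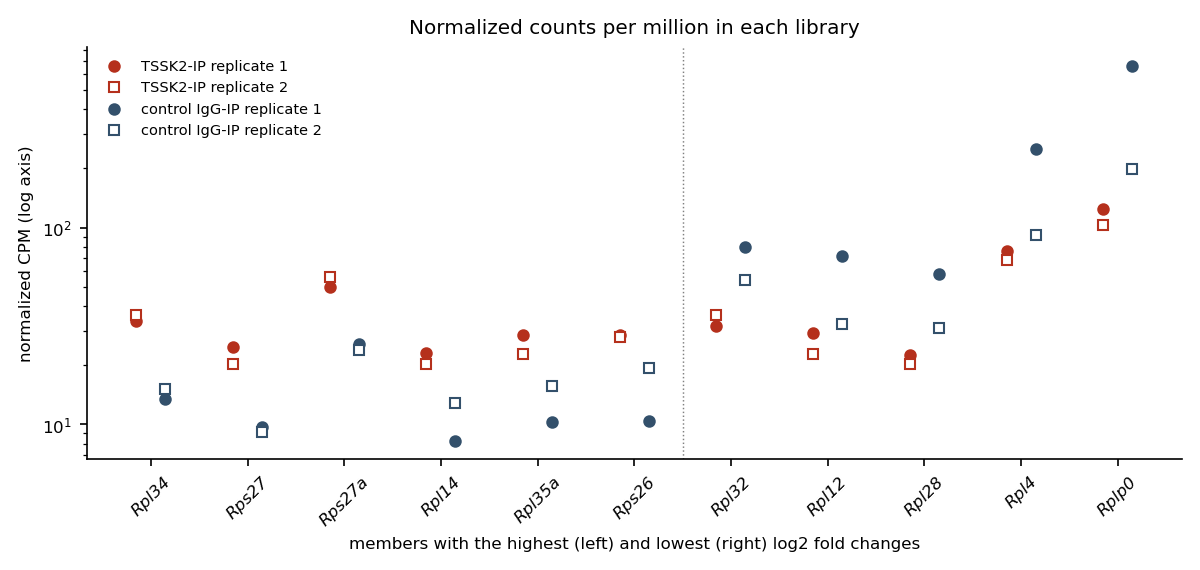
Normalized CPM on a log axis (y) in each of the 4 libraries for members with the highest and the lowest log2 fold changes (x). On the left, both TSSK2-IP libraries lie above both controls for each member. On the right, replicate 1 of the controls is the highest library for each member.

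Control IgG-IP replicate 1 was the highest library for 44 of the 78 tested members. The same count over all tested genes is not given, so this share cannot be called particular to the members. Among the 72 members with a mean of at least 10 normalized CPM, 14 differed at least 2-fold between the control replicates, all of them higher in replicate 1, and 1 differed at least 2-fold between the TSSK2-IP replicates. Over all 8879 genes at that level, 3355 differed at least 2-fold between the controls, 2311 of them higher in replicate 1, and 23 between the TSSK2-IP replicates.

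The calls among the members depended on which control was used. With control IgG-IP replicate 2 as the only control, 6 members were called higher and none lower (7.5% and 0% of the 80 tested, background 5.38% and 2.56%), the median was 0.15 (all genes 0.00), and 56 members lay above 0 and 24 below. The 6 were Rpl34 (log2 fold change 1.25), Rps27 (1.34), Rps27a (1.20), Rpl15 (1.47), Rpl31 (1.08) and the copy Rpl7l1 (1.14). With control IgG-IP replicate 1 as the only control, 5 members were called higher and 20 lower (6.33% and 25.3% of the 79 tested, background 17.9% and 17.4%), and the median was -0.26 (all genes 0.16). Among the 20 were Rplp0 (-2.61), Rpl4 (-1.86), Rpl12 (-1.55) and Rpl28 (-1.51). Rpl34 and Rps27 had a log2 fold change above 1 with either control alone, but neither was called with all 4 libraries. The fits with a single control share the same TSSK2-IP libraries, so they are not independent. How many of all genes pass in both was not computed. In these fits the lone control is assumed to vary like the TSSK2-IP libraries, and over all genes 894 were called higher and 426 lower in the first, and 2755 and 2688 in the second.

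Members of each subunit lay on both sides of 0. The 29 tested 40S members had a median log2 fold change of 0.01, with 16 above and 13 below 0, and the 39 tested 60S members a median of -0.14, with 16 above and 23 below. Without control IgG-IP replicate 1 these medians were 0.19 and 0.12, and without replicate 2 they were -0.32 and -0.46. The fitted fold changes of the stalk proteins did not share a sign. Rplp1 measured 14.3 and 12.4 CPM in TSSK2-IP and 12.3 and 7.35 in control IgG-IP (log2 fold change 0.43, SE 0.46), and Rplp2 measured 11.6 and 7.23 in TSSK2-IP and 17.9 and 8.96 in control IgG-IP (-0.53, SE 0.49). For Rplp1 both controls lay below both TSSK2-IP libraries, but only just, at 12.37 in TSSK2-IP replicate 2 and 12.33 in control IgG-IP replicate 1. Its fold change was smaller than its SE, and the groups overlapped for Rplp2.

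Rps6, the small-subunit protein phosphorylated by S6 kinases, measured 36.3 and 42.4 CPM in TSSK2-IP and 47.7 and 30.3 in control IgG-IP (log2 fold change 0.01, SE 0.41). Rps2, a protein of the mRNA entry channel, measured 38.1 and 28.7 CPM in TSSK2-IP and 39.8 and 26.9 in control IgG-IP (0.00, SE 0.41). For both, the TSSK2-IP libraries lay within the range of the controls. Rpsa, a small-subunit protein also known as the laminin receptor, measured 31.3 and 23.2 CPM in TSSK2-IP and 53.8 and 30.6 in control IgG-IP, with overlap (-0.63, SE 0.42).

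Many ribosomal protein genes carry small nucleolar RNAs (snoRNAs), which guide the modification of ribosomal RNA, in their introns. Of the members, 30 held 58 annotated snoRNAs. Among the 28 tested host members the median log2 fold change was -0.42, with 9 above and 19 below 0, and the 50 tested members without one had a median of 0.13, with 29 above and 21 below. Without control IgG-IP replicate 1 the medians were -0.02 and 0.35, and without replicate 2 -0.78 and -0.01. Across the 78 members the fold change was weakly related to mRNA length (Spearman rho -0.18, and -0.09 over all genes with a RefSeq mRNA). For the GC content of the longest annotated transcript, rho was -0.18, and -0.14 over all genes. For the GC content of the RefSeq mRNA, rho was -0.29 over the members, with no value over all genes beside it. These are descriptions over genes that share their libraries, and no test was made of the split.

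A group of 8 members had too few counts to be tested. Rpl24, a large-subunit protein whose association with TSSK2 the study examined at the protein level, had 3 counts in each TSSK2-IP library and 1 and 0 in control IgG-IP replicates 1 and 2. No fold change is given where both groups are at or under 3 counts. Rpl13a had 9 and 6 counts in TSSK2-IP and 13 and 12 in control IgG-IP. Rps10 had 2 and 7 in TSSK2-IP and 10 and 9 in control IgG-IP, and Rpl36al, a copy of Rpl36a, had 2 and 14 in TSSK2-IP and 6 and 3 in control IgG-IP.

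These 4 autosomal members are the ones whose mRNA shared at least 50% of its bases with exons of another annotated gene on the same strand. The shared part was 71.3% for Rpl24 (with Gm28037), 60.5% for Rpl13a (with Gm45713 and Mir5121), 80.6% for Rps10 (with RPS10-NUDT3) and 64.2% for Rpl36al (with Gm49383). Their levels lay between 0.497 and 2.28 CPM per kb. The other 70 autosomal ribosomal proteins that are not copies had a median of 41.8 CPM per kb and a range of 4.31 to 200.8. Whether the counting discarded reads in shared exons was not tested, and the counts of these 4 genes may say little about their mRNAs.

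The X-linked members were also near the bottom of the range. Rpl10, which completes the large subunit, had 14 and 18 counts in TSSK2-IP and 6 and 15 in control IgG-IP. Rpl39, a small protein in the exit tunnel, had 1 in each TSSK2-IP library and 1 and 5 in control IgG-IP, and Rpl36a had 1 and 3 in TSSK2-IP and 2 and 4 in control IgG-IP. Rps4x, a small-subunit protein, had 5 in each TSSK2-IP library and 6 and 9 in control IgG-IP. The levels of these 4 genes lay between 0.981 and 3.37 CPM per kb, all below the median of 6.11 over all tested genes with a RefSeq mRNA. The last of the 8 untested members, the retrocopy Rps27rt, had 3 counts in each of 3 libraries and 2 in control IgG-IP replicate 2.

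Sequence shared with other parts of the genome differed among the X-linked members. Of their 150-base windows, 94.0% occurred elsewhere for Rpl10 and 90.6% for Rpl36a, but 6.68% for Rps4x and 1.4% for Rpl39. In all, 73 of the 86 members had at least 1 such window, 60 had a pseudogene named after them, and 6 had at least 90% of their windows elsewhere. The other 4 of these 6 were Rps27, Rpl28, Rpl12 and Rps12, whose counts ran from 40 to 462 in the libraries. How reads that fit several places were counted is not given in the sources used here, and its part in the low values was not tested. The fold change was not related to the share of windows elsewhere (Spearman rho 0.00 over 78 members).

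**Figure D3:**
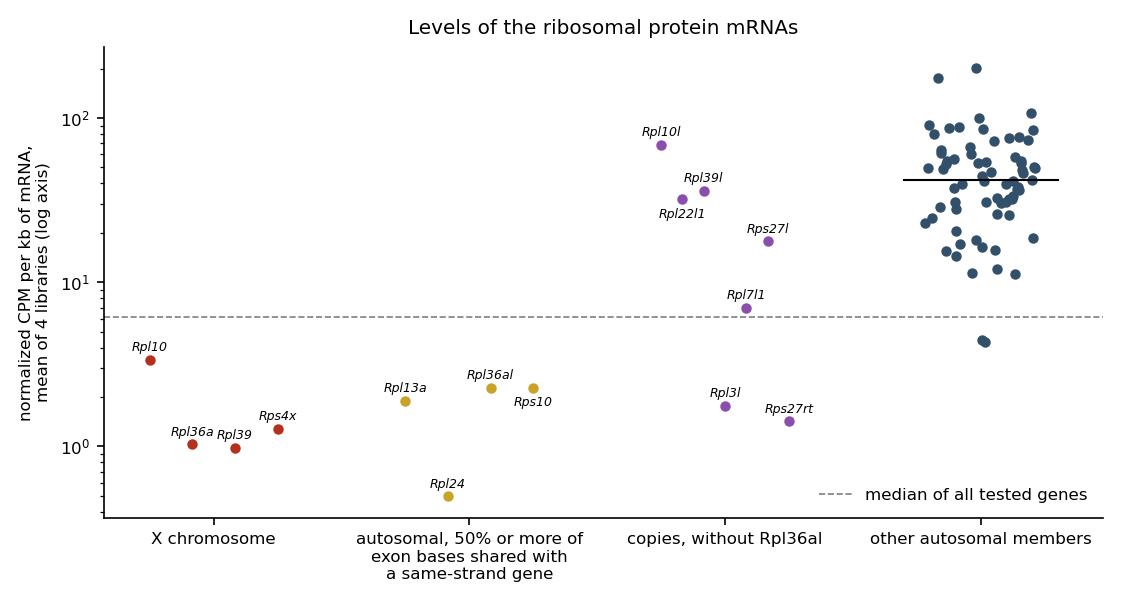
Mean level over the 4 libraries in normalized CPM per kb of mRNA on a log axis (y), one point per member, for the X-linked members, the autosomal members that share at least 50% of their bases with a same-strand gene, the copies and the other autosomal members (x). The solid line is the median of the last set (41.8 CPM per kb) and the dashed line that of all tested genes (6.11). Rps19bp1 is not drawn, and Rpl36al is drawn in the second set.

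The autosomal copies Rpl10l and Rpl39l were counted far above their X-linked parents. Rpl10l, a gene of a single exon with a coding length of 642 bases like that of Rpl10, had 52.3 and 59.2 CPM per kb in TSSK2-IP and 106.9 and 56.6 in control IgG-IP, while Rpl10 had 3.65 and 4.31 in TSSK2-IP and 1.18 and 4.33 in control IgG-IP. Per kilobase, the copy was 14.3 and 13.7 times the parent in TSSK2-IP and 90.8 and 13.1 times in control IgG-IP. Rpl39l, with a coding length of 153 bases like Rpl39, had 43.3 and 35.9 CPM per kb in TSSK2-IP and 35.7 and 29.7 in control IgG-IP. With only 1 parent count in each of 3 libraries, its ratio to Rpl39 was held within wide counting limits. The ratio was 90.6 (exact 95% interval 16.0 to 3599) and 82.0 (14.5 to 3258) in TSSK2-IP, and 99.2 (17.6 to 3939) and 11.2 (4.65 to 35.3) in control IgG-IP. The ratio for Rpl10l rests on a parent whose reads mostly match other places, whereas Rpl10l and Rpl39l had 4% and 0% of their windows elsewhere.

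For the other X-linked parent with a copy, the counts were too low to resolve a ratio. Rpl36al was between 0.709 and 4.41 times Rpl36a, from at most 14 counts of the copy and 4 of the parent in a library, and the exact 95% intervals held 1 in 3 of the 4 libraries.

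Neither Rpl10l nor Rpl39l was called. Rpl10l had a fold change of -0.55 on the log2 scale (SE 0.44), and its groups overlapped. Rpl39l had 0.28 (SE 0.39), and both TSSK2-IP libraries were above both controls.

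Copies with an autosomal parent varied more in their level. With 0.5 counts added to each gene, Rpl22l1 was between 5.92 and 8.75 times Rpl22 per kilobase in the 4 libraries. In contrast, Rpl7l1, which takes part in making the large subunit, was between 0.0521 and 0.155 times Rpl7. Rpl3l, a muscle copy, was between 0.0122 and 0.116 times Rpl3, and Rps27l between 0.18 and 0.618 times Rps27. The ratio of Rpl22l1 rests partly on length, since the RefSeq mRNAs measure 489 bases for Rpl22l1 and 2153 for Rpl22. Their counts were 85 and 93 against 58 and 47 in TSSK2-IP, and 66 and 74 against 49 and 37 in control IgG-IP. The annotated exons together measure 1989 bases for Rpl22l1 and 2911 for Rpl22, and ratios on that length were not computed.

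Of the 7 pairs with counts, only the ratio of Rpl7l1 to Rpl7 had no overlap between the groups. Its log2 values were -2.69 and -2.76 in TSSK2-IP and -4.26 and -3.95 in control IgG-IP, a difference of 1.38. The exact two-sided permutation p was 0.333 for this pair, the smallest that n = 2 against 2 allows, and 1 after Benjamini-Hochberg adjustment over the 7 pairs. The remaining pairs had exact p between 0.667 and 1. Rpl7l1 itself measured 24.5 and 23.4 CPM in TSSK2-IP and 13.9 and 11.3 in control IgG-IP (log2 fold change 0.92, SE 0.41, edgeR adjusted p = 0.359), and Rpl7 measured 56.8 and 56.9 in TSSK2-IP and 96.0 and 62.7 in control IgG-IP (-0.48, SE 0.42).

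**Figure D4:**
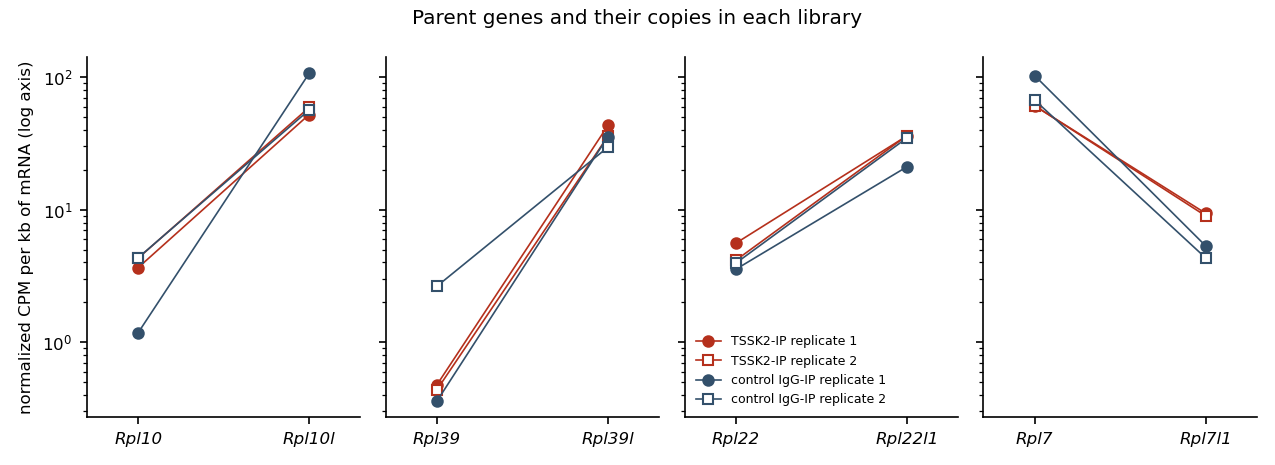
Normalized CPM per kb of mRNA on a log axis (y) for 4 parent genes and their copies (x), with a line joining the pair in each of the 4 libraries. Rpl10l and Rpl39l lie above their X-linked parents in every library, and Rpl7l1 lies below Rpl7, more so in the controls.

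Other mRNAs of the translation machinery were set beside the members in the same fit, and none of them was called. Over all tested genes, 0.693% were called higher and 0% lower in this fit. Initiation factor 3 (eIF3), which loads the 40S subunit on mRNA, had a median log2 fold change of -1.17 over 14 tested genes. Both TSSK2-IP libraries were below both controls for 10 of them (71.4%, background 21.6%) and above both for 1 (7.14%, background 27.3%). Eif3d measured 45.2 and 46.4 CPM in TSSK2-IP and 187.9 and 63.9 in control IgG-IP (-1.46, SE 0.52), and Eif3f 29.9 and 29.3 in TSSK2-IP and 98.3 and 44.1 in control IgG-IP (-1.27, SE 0.45). Neither gene overlapped between groups, and replicate 1 was the higher control. Without that library the eIF3 median was -0.32 and that of the ribosomal proteins 0.15, and without replicate 2 they were -1.76 and -0.26.

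The other initiation factors had a median of -0.51 over 25 genes, the elongation and release factors -0.47 over 12, and the ribosome-associated and fusion proteins -0.54 over 8. Without control IgG-IP replicate 1 these medians moved to -0.12, 0.01 (8 of 12 genes above 0) and -0.08, and without replicate 2 to -0.78, -0.92 and -0.93. Among the other initiation factors, the smallest p belonged to Eif1a, at 122 and 150 CPM in TSSK2-IP and 35.4 and 77.2 in control IgG-IP (log2 fold change 1.28, SE 0.49), and to Eif2b1 (-1.39, SE 0.53). Eif5a2, a form of the elongation factor eIF5A, measured 50.6 and 46.8 CPM in TSSK2-IP and 22.8 and 12.6 in control IgG-IP (1.45, SE 0.42). Both TSSK2-IP libraries were above both controls for Eif1a and Eif5a2.

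Eef1a1, which brings aminoacyl-tRNA to the ribosome and has a TOP mRNA, measured 582 and 543 CPM in TSSK2-IP and 3431 and 851 in control IgG-IP (log2 fold change -1.93, SE 0.96). Rack1, a scaffold protein on the 40S subunit, measured 15.1 and 12.2 CPM in TSSK2-IP and 36.4 and 16.1 in control IgG-IP (-0.95, SE 0.46). Fau, a fusion protein that yields the small-subunit protein eS30, measured 41.7 and 39.8 in TSSK2-IP and 50.1 and 35.6 in control IgG-IP (-0.08, SE 0.40). Eef1a1 and Rack1 were higher in both controls, and Fau overlapped.

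Known TOP mRNAs outside the set, a list that shares genes with the eIF3 and elongation factor lists, had a median of -0.97 over 20 genes, with 2 above and 18 below 0. Ribosome biogenesis factors had a median of -0.13 over 32 genes, with the smallest p for Bysl (-1.41, SE 0.46) and Polr1a (-1.09, SE 0.47). The mitochondrial ribosomal proteins, which form a separate ribosome, had a median of 0.12 over 73 genes, with 42 above and 31 below 0 and the smallest p for Mrps9 (1.34, SE 0.42) and Mrps6 (1.61, SE 0.51). Without control IgG-IP replicate 1, the median was -0.25 for the TOP list, -0.06 for the biogenesis factors and 0.27 for the mitochondrial list, and without replicate 2 the medians were -1.48, -0.35 and 0.20. The lists share all 4 libraries with the members, and the differences between lists were not tested.

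**Figure D5:**
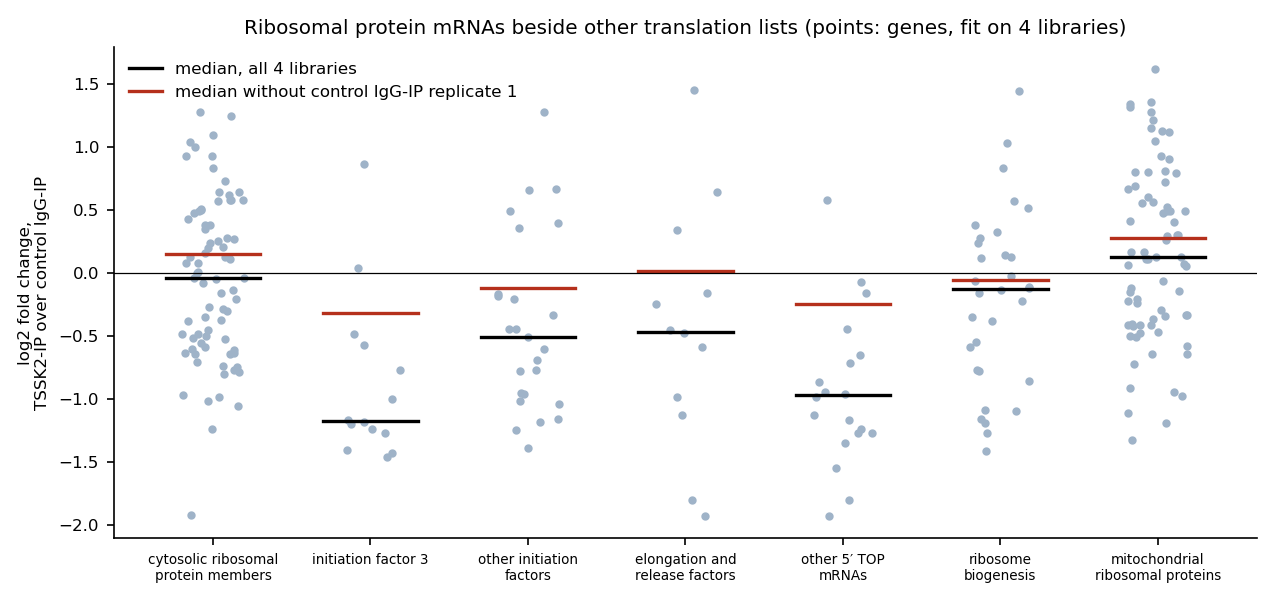
Log2 fold change of TSSK2-IP over control IgG-IP (y axis) for tested genes of the members and of 6 other translation lists (x axis), with the median over 4 libraries in black and the median of a fit without control IgG-IP replicate 1 in red. In black, the members are centered at -0.04 and eIF3 at -1.17, and in red at 0.15 and -0.32.

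The libraries carried the markers of spermatids and spermatocytes. All 13 spermatid markers were tested and took between 0.634 and 0.914% of the counts, and the 9 spermatocyte markers took between 0.0596 and 0.103%. The 8 spermatogonium markers took between 0.00221 and 0.00612%, within the range of the somatic lists. Markers of Sertoli, Leydig, peritubular and endothelial, and macrophage and blood cells took between 0.000781 and 0.0104% per list, and the globin genes Hba-a1, Hbb-bs and Hbb-bt had between 0 and 9 counts in a library. Each of these somatic lists and the spermatocyte list took its smallest share in control IgG-IP replicate 1, where the spermatid list took its largest. The median log2 fold change was -0.33 for spermatid, 0.29 for spermatocyte, 0.06 for spermatogonium, 0.53 for Sertoli, 0.66 for Leydig, -0.27 for peritubular and endothelial, and -0.19 for macrophage and blood markers. Without control IgG-IP replicate 1 these became -0.06, 0.21, -0.01, 0.22, 0.47, -0.64 and -0.20, in the same order. Their part in the values of the ribosomal protein mRNAs was not tested. Differences in cells of a type, in RNA per cell and in recovery on the beads cannot be told apart.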

How the data were processed

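Reads were trimmed by the authors with Trimmomatic 0.39, aligned to GRCm38 with STAR and counted per gene with featureCounts 2.0.3, and the deposited values are raw counts without normalization. The STAR version is 2.7.10a in the submitters' processing notes. Libraries were directional and made without removal of ribosomal RNA. Strand and multimapping settings of the counting are not given in the sources used here, so antisense partners, overlapping genes and processed copies may share reads with a member.

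Counts of 4 libraries (3938922 to 9858941 per library) were fitted with edgeR 4.0.16 in R 4.3.3 (filterByExpr, 14722 of 21936 genes; TMM; glmQLFit and glmQLFTest; Benjamini-Hochberg adjustment over all tested genes; common dispersion 0.135). A standard error is the size of the log2 fold change divided by the square root of F. Normalized CPM used the TMM library sizes. The fits were tested on simulated data. The simulated dispersions were below the common dispersion of these data, and no simulated library was made to stand apart like control IgG-IP replicate 1. DESeq2 1.42.0 was an alternative, beside DESeq2's size factors, upper-quartile normalization, other filters, removal of mitochondrially encoded genes and Lars2, GC and length offsets, the replicate number as a block and leaving out each library. An alternative chosen after seeing the data kept, for the median and the share of counts, only members with under 10% of their windows elsewhere. GENCODE vM21 named 21894 genes, and 42 were not in it. All 86 members matched a RefSeq mRNA. Windows of 150 bases of each mRNA were searched verbatim in the rest of the GRCm38 genome.

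The members, the gene lists and the comparisons were chosen with earlier results of these data known. Described by name were members past both thresholds, the 6 with the highest and lowest fold change, smallest p and highest level per kb, the copies and their parents, the stalk proteins, Rpl24, Rps2, Rps6 and Rpsa, and, of other genes, Fau, Rack1 and up to 2 per list with the smallest p. Rpl15, Rpl31, Rps12 and the untested members were named after their values were seen. A member and a further gene that this rule names are not reported here. Rps4l had no row in the table used here.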

Additional observations from a re-analysis of the deposited data

How the results depend on the processing

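No member was called in either direction with DESeq2, DESeq2's size factors, upper-quartile normalization, either other filter, removal of mitochondrially encoded genes and Lars2, or GC and length offsets. With the replicate number as a block, 0 members were called higher and 0 lower and the median was -0.03, while calls over all genes went from 102 to 274 higher and from 0 to 3 lower. In the co-immunoprecipitation method of the paper, lysate was split equally between TSSK2 and IgG beads. Whether libraries with the same number shared a lysate is not stated in the sources used here. The data cannot settle it, since 2 pairs cannot establish a pairing (correlation of same-numbered deviations 0.19 over 8879 genes). The median of the members lay between -0.17 and 0.02 under the normalization, filter, block and offset alternatives, and was -0.16 over the members with under 10% of windows elsewhere. DESeq2's size factors moved the median of all genes to -0.14 and DESeq2 to -0.20, with the members at -0.17 and -0.13. Over all genes, the calls were 20 higher with upper-quartile normalization, 29 with at least 10 counts in every library, and 283 higher and 24 lower without a filter.

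Leaving out 1 library moved the calls among members to between 0 and 6 higher and between 0 and 20 lower, the median to between -0.26 and 0.15, members without overlap to between 26 and 46 higher (31.7 to 57.5%, all genes 32 to 47.3%) and between 20 and 46 lower (25 to 58.2%, all genes 30.6 to 41.4%), and the share difference to between 0.0204 and 0.0342 percentage points. Leaving out a control gave the most calls in each direction and both ends of the median, and leaving out a TSSK2-IP library gave 0 calls among members. Upper-quartile normalization gave 27 members without overlap and lower, against 17 (34.6%, all genes 26.7%), and the cause was not tested. The share difference was 0.0328 without mitochondrially encoded genes and Lars2 and 0.0057 over the 13 members with no window elsewhere, and it reversed to -0.0173 over the 22 with under 10% of windows elsewhere, where the cause was not tested.

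The log2 ratio of copy to parent, as TSSK2-IP minus control IgG-IP, ranged on leaving out a library from -2.62 to 0.10 for Rpl10l (0.10 without control IgG-IP replicate 1), from -0.20 to 2.49 for Rpl39l (-0.20 without control IgG-IP replicate 2), from -1.50 to 0.02 for Rps27l (0.022 without TSSK2-IP replicate 1), from -0.23 to 0.34 for Rpl22l1 (-0.23 without control IgG-IP replicate 1, -0.16 without TSSK2-IP replicate 2), from -1.20 to 2.05 for Rpl3l (-1.20 without control IgG-IP replicate 1), from 0.02 to 1.76 for Rpl36al and from 1.22 to 1.54 for Rpl7l1. A prior of 2 counts kept each direction. With 2 libraries per group and few counts for the X-linked parents, differences of this size could not be resolved.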
